A study of Oryza sativa with 3 samples.

Results

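Cytochrome P450 enzymes are a large family of plant oxygenases, and their transcripts were followed here in 3 organs of rice (Oryza sativa), leaf blade, node and stem. The family was taken by description: every gene with a single locus identifier and the words cytochrome P450 in its deposited annotation, with 5 identifiers left out by name. That gave 337 genes of 54534 with a single identifier in at least 1 library, of which 302 were in the leaf blade table, 322 in the node table and 312 in the stem table. All tables held 284 of them, among 51597 genes in all.

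Each tissue was represented by 1 paired-end library of total RNA, so differences between tissues have no replicate check and no p-value. The node sample combined nodes I and II, where the leaves join the grass culm. The plants shared 1 growth regime, 29 °C with 12 h of light and 12 h of dark in a greenhouse or plant chamber, and the series describes the tissues as mature. The sources used here do not give cultivar, plant age or the number of plants behind each library.

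A P450 enzyme holds a heme group and inserts an oxygen atom from molecular oxygen into its substrate. Most plant P450s sit in the endoplasmic reticulum membrane and receive electrons from an NADPH-dependent reductase, in some cases by way of cytochrome b5. In plants they make and break down hormones, build sterols, waxes, cutin and lignin precursors, produce defence compounds, and oxidise foreign chemicals such as herbicides.

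Levels are FPKM, fragments scaled to transcript length and library size, so levels of different genes are compared per length. The intervals deposited with each value implied about 39900000 fragments for leaf blade, 40000000 for node and 43200000 for stem. For P450 genes at 10 FPKM or more they reached, at the median, 5.07%, 5.09% and 4.97% either side of the value. They were read as covering counting error only. The labelled tissues were checked with genes of known location. The 14 rows described as chlorophyll A-B binding proteins, the light-harvesting proteins of green tissue, summed to 14859 FPKM in the leaf blade, 1048 in the node and 6227 in the stem, and 13 of them were highest in leaf blade. OSH1, a homeobox gene of shoot meristems, stood at 0.192 FPKM in the leaf blade, 131 in the node and 19.6 in the stem. OSH15, a homeobox gene of internodes, stood at 0.284, 145 and 411 FPKM in the same order. These genes thus separated the leaf blade library from the other libraries.

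The most abundant P450 genes differed between tissues. The summed level of the 284 genes was 1539 FPKM in the leaf blade, 1340.1 FPKM in the node and 1508 FPKM in the stem, which was 0.201%, 0.163% and 0.207% of the FPKM of all genes in all tables. Because these are bulk tissues, fewer cells of a type and less RNA per cell cannot be told apart in any value given here. Members without a row in every table added 53.9 FPKM in the leaf blade, 59.9 in the node and 219 in the stem through rows of their own, and rows that merge P450 genes only added 409, 50.8 and 435 FPKM. With these the sums were 2003, 1451 and 2162 FPKM, so node was lowest either way and by more once they were counted. Rows that merge P450 genes with other genes, at 199, 193 and 18.1 FPKM, are not in these sums. Among members without a row in every table, LOC_Os09g26960 measured 164 FPKM in stem. In leaf blade and node it lay in a row merged with LOC_Os09g26970, at 103 and 187 FPKM, so only its stem value is in the sums. Of the 284 genes, the 10 most abundant held 41.3% of their sum in the leaf blade, 50.1% in the node and 53.2% in the stem. Together these lists named 25 genes, and LOC_Os06g03930 was the 1 gene present in each of them.

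Most members were under 1 FPKM in at least 1 tissue. Of the 284 genes, 50 (17.6%) were listed at 0 in every tissue, against 36.3% of all genes, and 90 were above 0 but under 1 FPKM everywhere. The remaining 144 (50.7%) passed 1 FPKM somewhere and entered the comparisons, against 38.9% of all genes. At least 1 FPKM was reached by 111 genes in the leaf blade, 95 in the node and 97 in the stem. In every tissue at once, 64 genes passed 1 FPKM and 10 passed 10 FPKM. That minimum passes a member through the tissue where it is highest, so the 144 are not all members.

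Differences between tissues are given as log2 ratios of FPKM + 1, on which 2 equals 4-fold, and a gene was called higher or lower from 4-fold. The added 1 understates differences of low genes, and 4-fold means this scale unless FPKM itself is named. On FPKM itself, 25 more members passed 4-fold between node and leaf blade, 27 between stem and leaf blade and 31 between node and stem, among 132, 125 and 129 above 0 in both tissues. The comparisons share libraries, so their values are set side by side and are not independent. Between node and leaf blade, 34 P450 genes (23.6%) were lower in node, where 7.29% of all 20097 genes compared were lower. In the other direction 22 (15.3%) were higher in node, where 12.3% of all genes were higher. Over the 144 genes the median log2 ratio was -0.34, with quartiles at -1.92 and 1.30, beside a median of 0.13 over all genes.

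The stem stood to the leaf blade in a like way, with smaller numbers. In stem, 26 P450 genes (18.1%) were lower than in leaf blade, where 6.52% of all genes were lower. The 16 genes higher in stem made up 11.1%, where 6.43% of all genes were higher. The median log2 ratio was -0.06, beside -0.02 over all genes, so calls in either direction lay around a centre near 0.

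Between node and stem, 13 genes (9.03%) were lower in node than in stem, where 2.3% of all genes were lower, and 11 (7.64%) were higher in node, where 6.82% of all genes were higher. The share higher in node was close to the background. Fewer members were called than in either comparison with leaf blade. This changed with implied fragments, numbers recovered from the intervals. Their ratios take no added 1 and cover only members above 0 in both tissues. On those, 26 of 129 were higher and 31 lower in node than in stem. In stem against leaf blade, 24 of 125 were higher and 33 lower. The matching shares of all genes were 12.8% and 4.03%, and 11.5% and 10.8%. On FPKM itself, also without the added 1, 31 more members passed 4-fold between node and stem than on FPKM + 1, and 27 more between stem and leaf blade. The median log2 ratio over the 144 members was 0.01 beside 0.16 over all genes. Its sign turned under other scalings, down to -0.23 with implied fragments, there over the 129 members above 0 in both tissues. In at least 1 comparison, 71 members (49.3%) passed 4-fold, as did 25% of all genes.

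**Figure D1:**
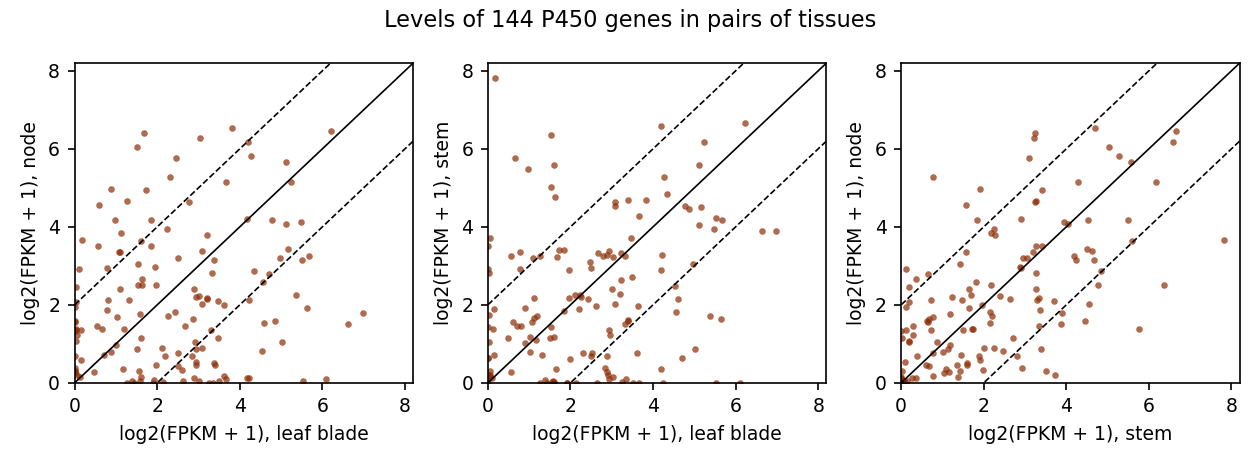
Each point is 1 of the 144 P450 genes, placed by log2(FPKM + 1) in a pair of tissues, with 1 library per tissue. The solid line marks equal levels and the dashed lines 4-fold; 34 points lie beyond the lower dashed line for node against leaf blade and 22 beyond the upper one.

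The differences were also described by size, whatever their direction. The median absolute log2 ratio was 1.58 for P450 genes and 0.82 for all genes between node and leaf blade, 1.31 and 0.63 between stem and leaf blade, and 0.92 and 0.52 between node and stem. Other enzyme families, described next, had like values: 1.82 for glutathione S-transferases and 1.26 for UDP-glucosyl transferases between node and leaf blade, and 1.37 and 1.28 between stem and leaf blade. With a stricter minimum of 5 FPKM, which left 98 members, 32 (32.7%) were lower in node than in leaf blade against 8.86% of all genes. At that minimum 25 (25.5%) were lower in stem than in leaf blade against 7.84%, and 13 (13.3%) were lower in node than in stem against 2.89%. In the other direction 20.4% were higher in node than in leaf blade against 14.6%. Higher in stem than in leaf blade were 16.3% against 8.08%, and higher in node than in stem 10.2% against 8.08%. Among the 144 members the lower counts were 34, 26 and 13, so the larger shares came mainly from fewer members compared.

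Other large enzyme families of small-molecule metabolism were set beside the P450 genes. UDP-glucosyl transferases, which attach sugars to hormones and secondary metabolites, had 4 of 32 genes higher (12.5%) and 3 lower (9.38%) in node than in leaf blade. Glutathione S-transferases, which conjugate glutathione to reactive compounds, had 10 of 36 genes higher (27.8%) and 6 lower (16.7%). In stem against leaf blade the glutathione S-transferases had 3 higher (8.33%) and 7 lower (19.4%), a share lower near that of the P450 genes, and the UDP-glucosyl transferases had 3 higher (9.38%) and 4 lower (12.5%). In node against stem they had 5 higher (13.9%) and 1 lower (2.78%), and 2 higher (6.25%) and 2 lower (6.25%). No test of these differences between families was made.

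**Figure D2:**
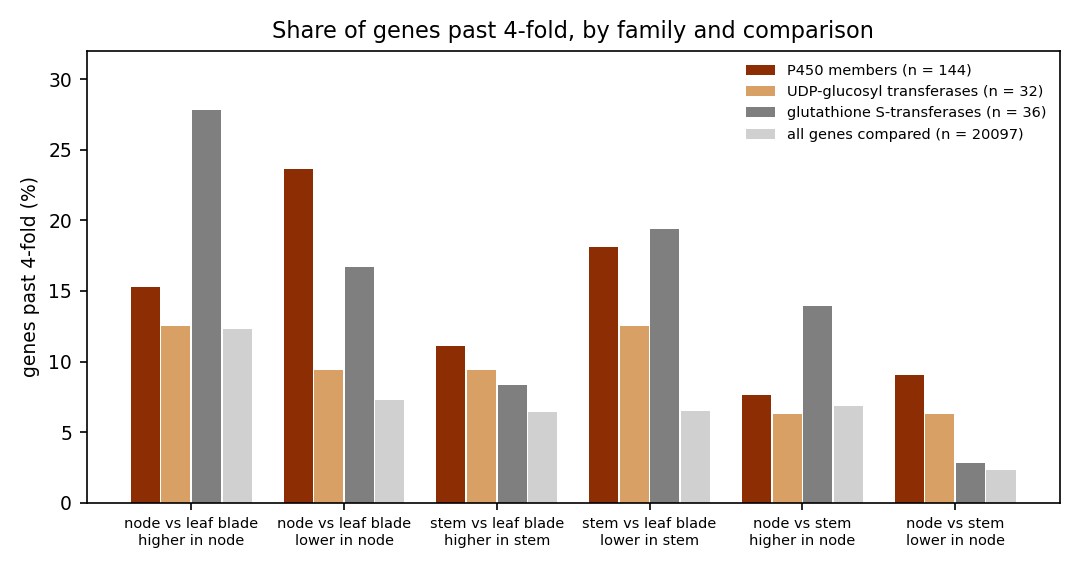
Bars give the percent of genes past 4-fold in each comparison and direction for P450 genes, 2 other enzyme families and all genes compared; the axis starts at 0 and there are no error bars because each tissue has 1 library. The P450 bar for lower in node than in leaf blade stands at 23.6%, against 7.29% for all genes.

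By leading tissue, 64 members (44.4%) were highest in the leaf blade, 46 (31.9%) in the node and 34 (23.6%) in the stem. Over all genes compared the shares were 36.8%, 40.9% and 22.4%. A stricter description kept genes at least 4-fold above both other tissues. Leaf blade had 22 such members (15.3%, against 4.56% of all genes), node had 9 (6.25%, against 5.26%) and stem had 8 (5.56%, against 0.921%). The remaining 105 members predominated in no tissue. Among glutathione S-transferases 13.9% predominated in the leaf blade, 11.1% in the node and 2.78% in the stem. Among UDP-glucosyl transferases the shares were 6.25%, 3.12% and 6.25%, so their stem share was also above that of all genes.

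The leaf blade genes ran from 3.42 to 125 FPKM in that tissue, 14 of them at 10 FPKM or more. LOC_Os09g36080, described only as a cytochrome P450, was the most abundant member there with a row in every table, at 125 FPKM in the leaf blade, 2.45 in the node and 13.8 in the stem. It was high in the leaf blade alone, with log2 ratios of -5.19 for node and -3.09 for stem. The deposited locus is on chromosome 9 from 20774283 to 20776230. LOC_Os11g27730, on chromosome 11 from 15956522 to 15960573, had a like profile at 98.1, 1.84 and 13.8 FPKM.

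A further group was near 0 outside the leaf blade. LOC_Os11g41710, on chromosome 11 from 25040876 to 25042999, stood at 67.5 FPKM in leaf blade and 0.0736 in node, and was listed at 0 in stem. LOC_Os07g11739 stood at 45.2 and 0.0383 FPKM and was listed at 0 in stem as well. Such genes were effectively leaf blade transcripts in these libraries, and 9 of the 22 were listed at 0 in at least 1 other tissue. LOC_Os07g29960 at 11.6 FPKM and LOC_Os06g43350 at 10.3 FPKM in leaf blade followed the same pattern, with 0.0644 and 0.0307 FPKM in node and a listed 0 in stem. LOC_Os02g02000 stood at 8.56 FPKM in leaf blade, was listed at 0 in node and stood at 0.0119 in stem.

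Others kept a low level elsewhere. LOC_Os08g36310 measured 48.8 FPKM in the leaf blade, 2.75 in the node and 2.12 in the stem. LOC_Os03g63310, described as P450 71E1, measured 40.3, 3.74 and 2.25 FPKM. In both the leaf blade was highest, with log2 ratios of -3.73 and -3.12 for node and -4.00 and -3.67 for stem. LOC_Os03g63310 overlaps another expressed row, and since the sources used here do not give the strand its fragments could belong to either gene. LOC_Os10g30410, described as P450 71D7, measured 11.2, 0.124 and 0.696 FPKM, and it too overlaps another row.

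Several abundant genes led by leaf blade fell outside that strict group. LOC_Os08g43440 measured 49.8 FPKM in the leaf blade, 8.53 in the node and 17.2 in the stem. LOC_Os04g48460 measured 28.0, 2.01 and 20.8 FPKM, so it was low in node only, with a log2 ratio of -2.86 for node against stem. LOC_Os03g04680 measured 24.96, 5.94 and 0.567 FPKM and was low mainly in stem, at -4.05 against leaf blade.

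The node genes were led by LOC_Os05g01120, on chromosome 5 from 101365 to 104162. It measured 2.18 FPKM in the leaf blade, 84.5 in the node and 8.43 in the stem. Node stood above both other tissues, by 4.75 and 3.18 on the log2 scale. LOC_Os08g43390 measured 4.52, 53.5 and 7.49 FPKM. LOC_Os12g05440 measured 3.96, 37.9 and 0.709 FPKM, and its log2 ratio of 4.51 was the highest between node and stem among members at 10 FPKM or more.

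Smaller node genes had the same shape. LOC_Os11g05380 measured 0.854 FPKM in the leaf blade, 30.3 in the node and 2.75 in the stem, and LOC_Os12g39310 measured 0.514, 22.6 and 1.96. Both were under 3 FPKM outside the node. LOC_Os02g57810 at 6.61 FPKM and LOC_Os04g33370 at 4.45 FPKM in node stayed under 0.14 FPKM elsewhere. LOC_Os11g29720 measured 7.15, 76.5 and 8.34 FPKM, but it overlaps another expressed row and its share of implied fragments differed by 1.77 on the log2 scale between node and leaf blade, against 3.25 by FPKM + 1. LOC_Os06g36920, which also overlaps another row, measured 2.29, 30.0 and 9.59 FPKM and did not reach 4-fold over stem.

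The stem genes included the most abundant P450 value in these libraries. LOC_Os03g45619, on chromosome 3 from 25746001 to 25760794, measured 0.134 FPKM in the leaf blade, 11.6 in the node and 224 in the stem, where the deposited interval ran from 219.8 to 228.7. The levels stepped from near absent in leaf blade to intermediate in node and high in stem, with log2 ratios of 3.48 for node and 7.63 for stem against leaf blade. This 1 gene made up 14.9% of the summed P450 level in stem. The leaf blade value rested on about 11.7 implied fragments, against 992 in node and 10062 in stem.

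LOC_Os04g09430 measured 1.88 FPKM in the leaf blade, 4.64 in the node and 81.2 in the stem, and LOC_Os10g05490 measured 0.577, 1.62 and 53.6. Both were high in stem alone, with log2 ratios of 4.83 and 5.11 against leaf blade and -3.87 and -4.38 for node against stem. LOC_Os08g01450 was listed at 0 in leaf blade and measured 0.226 FPKM in node and 10.3 in stem. LOC_Os01g72270 was also listed at 0 in leaf blade, with 0.293 FPKM in node and 6.56 in stem. LOC_Os10g08319 measured 0.0116, 0.612 and 6.001 FPKM.

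Some members were high in stem and node alike and low in leaf blade. LOC_Os10g16974 measured 0.970 FPKM in the leaf blade, 17.0 in the node and 43.97 in the stem. LOC_Os04g01140, described as P450 93A2, measured 2.04, 11.5 and 46.9 FPKM. In both, stem was highest and node lay between, with log2 ratios of -1.32 and -1.94 for node against stem. On FPKM itself LOC_Os04g01140 was past 4-fold, with a node to stem ratio of 0.244.

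**Figure D3:**
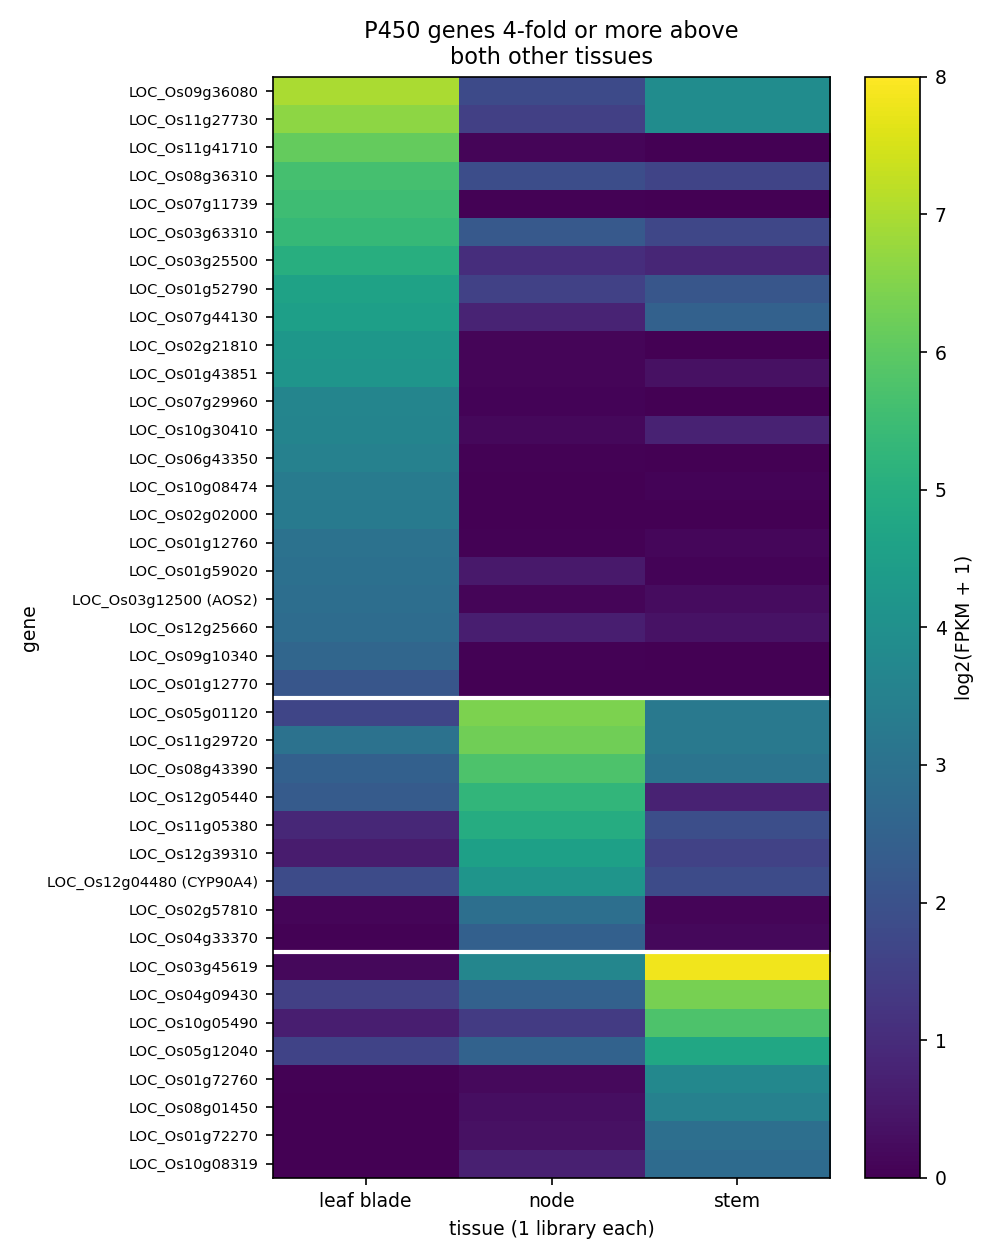
Colour gives log2(FPKM + 1) for the 39 P450 genes at least 4-fold above both other tissues, in 1 library per tissue; white lines separate the 22 leaf blade, 9 node and 8 stem genes. Within each block the genes are ordered by level, from 125 FPKM for the first leaf blade gene and 224 FPKM for the first stem gene.

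Of the 10 members above 10 FPKM in every tissue, LOC_Os06g03930 and LOC_Os01g43710 varied least by FPKM. LOC_Os06g03930, described as P450 86A1, a name given in plants to fatty acid omega-hydroxylases of cutin and suberin formation, measured 73.4 FPKM in the leaf blade, 86.1 in the node and 100.4 in the stem. The highest value was 1.37 times the lowest. Its implied fragments were less even, at 1703, 2015 and 9504, and the cause of the gap was not tested. LOC_Os01g43710, described as P450 72A1, measured 33.5, 49.9 and 46.7 FPKM, while its implied fragments were 3771, 879 and 702. These genes are even by FPKM but not by implied fragments. Across the members above 0 in both tissues, FPKM ratios and fragment shares differed by more than 2-fold for 15 of 132 between node and leaf blade, 16 of 125 between stem and leaf blade and 14 of 129 between node and stem. For members called past 4-fold, no fragment share ran the other way, and it fell under 2-fold for 1 gene, LOC_Os07g45000.

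Among the others above 10 FPKM in every tissue, LOC_Os03g04650 measured 26.4, 17.2 and 22.2 FPKM in leaf blade, node and stem. LOC_Os07g33480 measured 36.6, 34.4 and 71.4 FPKM. LOC_Os02g07680 measured 18.3, 55.0 and 38.0 FPKM. None of them passed 4-fold in any comparison, and the highest value was 1.54, 2.07 and 3.0 times the lowest.

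Members of known role were considered next, by lists of identifiers written from general knowledge. Symbols were used for 24 members whose symbol is in the RefSeq gene table of rice on the same chromosome; that table holds none of the identifiers, and the deposited descriptions rarely give a family number, so the link from identifier to symbol is not taken from the files. Of the 24, 15 were compared. Their counts stand beside shares of all genes of 12.3% higher and 7.29% lower in node than in leaf blade, 6.43% and 6.52% in stem than in leaf blade, and 6.82% and 2.3% in node than in stem.

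Brassinosteroids are steroid hormones that promote cell elongation, and several of their synthetic steps are run by P450s. The list held 6 genes, of which 4 were compared; 2 were higher in node than in leaf blade (median log2 ratio 2.0) and none passed 4-fold between stem and leaf blade (median 0.99). CYP90A3 (LOC_Os11g04710), a relative of the Arabidopsis enzyme CPD, measured 1.17 FPKM in the leaf blade, 13.4 in the node and 3.48 in the stem. CYP90A4 (LOC_Os12g04480), the other CPD relative, measured 2.58, 17.0 and 2.58 FPKM. Node was highest for both, with log2 ratios of 2.73 and 2.33 against leaf blade, and CYP90A4 was also 4-fold above stem. This list covers synthesis only, and genes listed for brassinosteroid inactivation are given by identifier with the CYP72 group.

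CYP85A1 (LOC_Os03g40540), which catalyses late oxidations that form castasterone, measured 2.60 FPKM in the leaf blade, 10.4 in the node and 9.63 in the stem. Node and stem were alike and above leaf blade, with log2 ratios of 1.67 and 1.56. CYP724B1 (LOC_Os04g39430), an enzyme of the side-chain hydroxylation steps, measured 2.87, 6.77 and 6.40 FPKM; it overlaps another row, and its fragment shares differed by no more than 0.22 on the log2 scale. CYP90B2 (LOC_Os03g12660), a side-chain hydroxylase related to Arabidopsis DWARF4, measured 7.93 FPKM in node and 1.65 in stem. CYP90D2 (LOC_Os01g10040), a later enzyme of the pathway, measured 13.3 and 6.51 FPKM there. In leaf blade both lay in merged rows with other genes and have no value of their own.

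Gibberellins control stem elongation and flowering. CYP88A5 (LOC_Os06g02019), an ent-kaurenoic acid oxidase of gibberellin synthesis, measured 4.67 FPKM in the leaf blade, 8.26 in the node and 6.70 in the stem. It differed little, with log2 ratios of 0.71 and 0.44 against leaf blade. CYP714B1 (LOC_Os07g48330), which hydroxylates gibberellins, measured 1.87, 65.1 and 31.6 FPKM. Leaf blade was lowest, at log2 ratios of 4.53 for node and 3.51 for stem. CYP714B1 was thus among the members with the highest ratios in both comparisons with leaf blade.

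Abscisic acid, the hormone of drought response and dormancy, is inactivated by the CYP707A hydroxylases. CYP707A5 (LOC_Os02g47470) was the most abundant P450 gene in node among those with rows in every table, at 92.4 FPKM there, 13.1 in leaf blade and 24.7 in stem. CYP707A6 (LOC_Os08g36860) measured 24.4 FPKM in node, 1.41 in leaf blade and 8.61 in stem. Node was highest for both, at log2 ratios of 2.73 and 3.40 against leaf blade, and neither passed 4-fold over stem. CYP707A7 (LOC_Os09g28390) ran differently, at 2.04 FPKM in the leaf blade, 1.24 in the node and 0.0110 in the stem. The list as a whole had 2 of 3 genes higher in node than in leaf blade and none past 4-fold in the other comparisons. On FPKM itself CYP707A7 was past 4-fold lower in stem, where its value rested on 1 implied fragment against 34.2 in leaf blade and 41.8 in node.

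Allene oxide synthases are P450s that act on lipid hydroperoxides in jasmonate synthesis, without an oxygen or electron donor. AOS1 (LOC_Os03g55800) measured 17.2 FPKM in the leaf blade, 71.1 in the node and 95.6 in the stem. AOS2 (LOC_Os03g12500) measured 6.36, 0.0805 and 0.208 FPKM. Both synthases were thus present in leaf blade, while in node and stem AOS1 was abundant and AOS2 near 0. The log2 ratios against leaf blade were 1.98 for node and 2.40 for stem for AOS1, and -2.77 and -2.61 for AOS2.

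**Figure D4:**
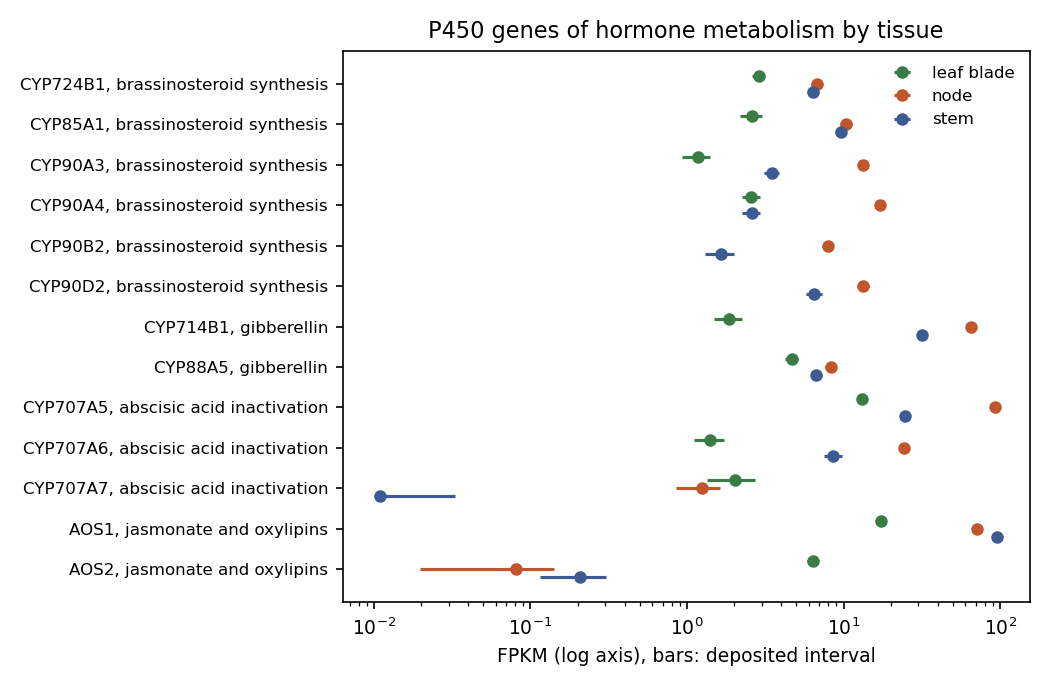
Points give FPKM on a log axis for P450 genes of hormone metabolism in leaf blade, node and stem (1 library each), with bars for the deposited interval; values under 0.01 FPKM are drawn at 0.01, and CYP90B2 and CYP90D2 have no leaf blade point. CYP714B1, CYP707A5 and CYP707A6 are highest in node, and AOS1 and AOS2 lie on opposite sides between leaf blade and the other tissues.

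Rice also uses P450s to make diterpenoid phytoalexins, antimicrobial compounds formed mainly on infection. Of the 8 genes of that list, 3 were compared, and none passed 4-fold on FPKM + 1 in any comparison. CYP71Z6 (LOC_Os02g36150) measured 10.1 FPKM in the leaf blade, 3.30 in the node and 12.0 in the stem. CYP71Z7 (LOC_Os02g36190) measured 2.05 and 0.118 FPKM in leaf blade and node, and CYP76M6 (LOC_Os02g36280) measured 1.41 FPKM in leaf blade; CYP71Z7 was listed at 0 in stem and CYP76M6 in both other tissues. These calls turn without the added 1: on FPKM itself CYP71Z7 was past 4-fold lower in node, at a ratio of 0.0577 to leaf blade. Of the remaining 5, CYP76M5, CYP76M8, CYP99A2 and CYP99A3 did not reach 1 FPKM anywhere. CYP701A8 (LOC_Os06g37300) measured 0.0128 FPKM in node and has no value of its own in the other tissues. There it lay in rows merged with other genes, at 52.3 FPKM in leaf blade and 0.0502 in stem. CYP71P1 (LOC_Os12g16720), which converts tryptamine to serotonin, measured 1.88, 7.33 and 1.69 FPKM and was highest in node, with log2 ratios of 1.53 over leaf blade and 1.63 over stem and an FPKM ratio of 4.34 over stem. By share of implied fragments the node and leaf blade differed more, with log2 ratios of -3.26 for CYP71Z6 and 3.63 for CYP71P1. The lists for fatty acid hydroxylation and organ growth kept 1 gene each, CYP703A3 and CYP78A11, and neither was compared.

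Members on the role lists whose symbols could not be tied to the RefSeq table are given by identifier alone. LOC_Os02g12890 measured 34.7 FPKM in the leaf blade, 9.76 in the node and 21.7 in the stem. LOC_Os10g34480, which overlaps another row, measured 3.68, 14.5 and 3.74 FPKM. LOC_Os06g01250 measured 2.12, 5.32 and 0.283 FPKM. By FPKM, the first was lowest in node, the second highest in node, and the third highest in node and lowest in stem, with a log2 ratio of 2.30 between node and stem. The implied fragments of LOC_Os02g12890 were 1876, 851 and 513, so its order between node and stem is the reverse by fragments; the cause was not tested. LOC_Os03g55240 measured 9.42, 7.80 and 24.7 FPKM, highest in stem. LOC_Os10g17260 measured 6.34, 2.13 and 0.600 FPKM, highest in leaf blade. LOC_Os10g39930, described as P450 97B2, measured 8.29, 3.44 and 5.23 FPKM, and in plants the CYP97 family includes ring hydroxylases of carotenoids. LOC_Os05g11130, LOC_Os02g26810, LOC_Os02g26770 and LOC_Os03g07250 stayed under 5 FPKM in every tissue.

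The deposited descriptions give a family number for few members; 265 have none. The largest described group, CYP72, had 30 members, of which 16 were compared. It includes the 5 identifiers whose symbols were dropped, which the role lists had under brassinosteroid inactivation or cytokinin. Of those listed for brassinosteroid inactivation, LOC_Os01g29150 measured 1.09, 9.16 and 1.95 FPKM in leaf blade, node and stem. LOC_Os02g11020 measured 0.461, 1.77 and 0.213. LOC_Os06g39880 measured 2.63 FPKM in node and 0.461 in stem, with no leaf blade value of its own. Among the 16 compared, 6 were lower and 3 higher in node than in leaf blade, and 4 were lower and 2 higher in stem than in leaf blade. Of all genes, 7.29% were lower and 12.3% higher in node, and 6.52% and 6.43% in stem. LOC_Os03g25500 measured 31.4 FPKM in the leaf blade, 1.08 in the node and 0.823 in the stem, and LOC_Os01g52790 measured 23.2, 1.90 and 3.43. LOC_Os07g44140 measured 0.470, 10.3 and 8.61 FPKM, lowest in leaf blade. Of the 16 compared with the description 72A1, 7 were led by leaf blade, 6 by node and 3 by stem. Over all genes compared the shares were 36.8%, 40.9% and 22.4%, so the split is not read as a trait of the group.

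CYP71, a family of many secondary-metabolism enzymes, had 19 described members, of which 7 were compared. None was 4-fold higher in node or stem than in leaf blade, while 2 were lower in node and 3 in stem. Of all genes, 12.3% were higher and 7.29% lower in node, and 6.43% and 6.52% in stem. With only 7 genes, the lack of higher ones is not read as a trait of CYP71. CYP51 is the sterol demethylase family shared by plants, fungi and animals, and 3 of its 7 described members were compared. Each was highest in a different tissue. LOC_Os02g21810 measured 17.8 FPKM in leaf blade and 0.0860 in node and was listed at 0 in stem. LOC_Os11g32240 measured 11.6, 34.3 and 18.6 FPKM in leaf blade, node and stem, and LOC_Os05g12040 measured 2.08, 4.72 and 26.4. All 3 members described as CYP86 were compared and none passed 4-fold on FPKM + 1. LOC_Os03g04660 measured 33.6, 15.8 and 15.5 FPKM. LOC_Os05g31740, described as 86A2 and overlapping another row, measured 4.70, 0.711 and 0.709 FPKM, which is past 4-fold on FPKM itself, at ratios of 0.151 to leaf blade for both other tissues.

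P450 genes often lie in tandem, and 140 members fell into 29 runs of at least 3 genes with starts no more than 50000 bases from the next. In runs, 45 of the 107 members in all tables were compared (42.1%), against 99 of 177 outside runs (55.9%). Of 15 runs with at least 2 members compared, 7 were led by a single tissue, 7 by 2 tissues and 1 by 3 tissues. Near-identical copies can share fragments, so levels within a run are uncertain where sequences are close.

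In some runs the members compared were all highest in 1 tissue. On chromosome 1 from 42202204 to 42213692, all 3 genes were highest in stem: LOC_Os01g72760 measured 12.2 FPKM there, 0.146 in node and 0.0417 in leaf blade. Its neighbours LOC_Os01g72730 and LOC_Os01g72740 reached 1.22 and 1.07 FPKM in stem. On chromosome 8 from 288778 to 321012, the 3 compared of 6 genes were also highest in stem, led by LOC_Os08g01490 at 7.46 FPKM in the leaf blade, 3.09 in the node and 22.4 in the stem. On chromosome 1 from 34074828 to 34133381, the 3 compared of 7 genes were highest in leaf blade, with LOC_Os01g59000 at 9.46, 0.373 and 2.0 FPKM.

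Other runs were mixed. On chromosome 7 from 26367084 to 26385034 lie LOC_Os07g44130 and LOC_Os07g44140, both described as 72A1. LOC_Os07g44130 measured 22.1 FPKM in the leaf blade, 0.755 in the node and 4.56 in the stem, highest where LOC_Os07g44140 was lowest. A run of 9 genes on chromosome 1 from 25040061 to 25121927 held LOC_Os01g43700 at 1.13, 9.27 and 8.11 FPKM and LOC_Os01g43851 at 17.2, 0.0813 and 0.282 FPKM. It also held LOC_Os01g43844 at 43.6, 16.3 and 14.4 FPKM. Genes leading in leaf blade and in node thus lay in the same run. The run of 14 genes on chromosome 6 from 26022267 to 26164660 had 3 members compared and 5 listed at 0 in every tissue.

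**Figure D5:**
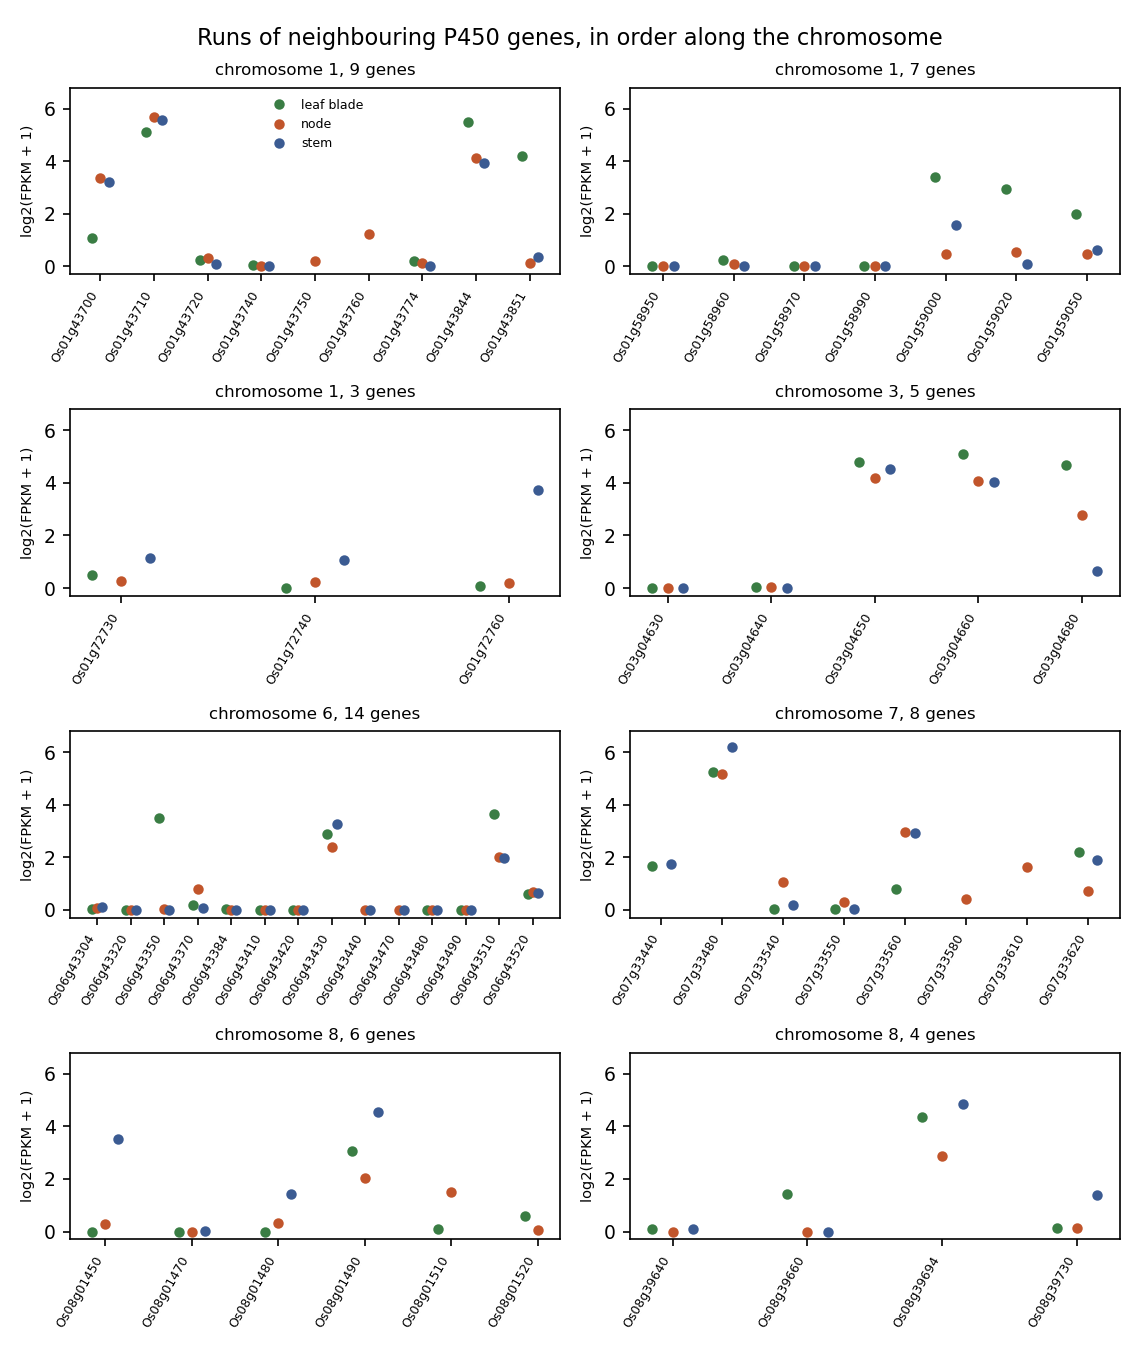
Points give log2(FPKM + 1) in leaf blade, node and stem (1 library each) for the genes of the 8 runs with at least 3 members compared, ordered along the chromosome but not drawn to distance. The run of 3 genes on chromosome 1 is highest in stem throughout, while the run of 9 genes on that chromosome holds LOC_Os01g43851 at 17.2 FPKM in leaf blade and LOC_Os01g43700 at 9.27 FPKM in node.

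Electron donors, taken by description, were set beside the family. The 4 rows described as NADPH reductase summed to 106 FPKM in the leaf blade, 116 in the node and 82.2 in the stem, and none passed 4-fold; LOC_Os04g55960 measured 52.4, 59.6 and 38.3 FPKM. The 13 rows grouped as cytochrome b5-like summed to 1518, 1401 and 1393 FPKM. They include LOC_Os09g16920, described as a desaturase/cytochrome b5 protein. Of the 13, 2 were higher and 1 lower in node than in leaf blade, near the shares of all genes, 12.3% and 7.29%. LOC_Os02g42740, a cytochrome b5-like row, was listed at 0 in leaf blade and measured 32.6 FPKM in node and 9.18 in stem. Neither of the 2 rows described as NADH-cytochrome b5 reductase passed 4-fold. Descriptions do not show which of these rows donate electrons to P450s.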

How the data were processed

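Per the labels, total RNA extracted with Trizol was made into 1 paired-end library per tissue. The file headers show that the authors deposited FPKM per gene, together with interval bounds, locus and annotation text. Of the tools, the submitters' processing notes list TopHat and no version of it. Which program quantified the genes, and on which genome build and annotation, is not given in the sources used here. Starts printed are the deposited ones plus 1, an inferred convention, and span the widest locus over the libraries; 88 of the 144 members compared had the same locus in each.

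Rows with no identifier or several identifiers were left out, as were identifiers found more than once in a library. The comparisons thus lacked 53 members without a usable row in every library. Of these, 50 lay in merged rows and 3 in none. The comparisons took genes that passed 1 FPKM somewhere, as log2((FPKM + 1)/(FPKM + 1)), with 4-fold as the call. Fragment numbers were recovered from the interval width and came out whole within 0.02 for 49.2%, 49.2% and 49.7% of rows tried in leaf blade, node and stem, against 4% by chance, so they are implied numbers and no count test was run. By rule, named genes were the 10 highest and 10 lowest ratios per comparison past 4-fold at 10 FPKM or more and the 5 most abundant per tissue. Role-list members at 1 FPKM or more and members of described runs were also named. Some members outside this rule are given as examples of the groups described, such as LOC_Os02g57810 and LOC_Os10g08319. Members and lists were chosen with earlier results of these data known. Symbols were dropped where the description named another family (5 of 55 identifiers). The scripts were tested on simulated data. Python 3.11.15, pandas 2.3.3 and numpy 2.4.6 were used.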

Additional observations from a re-analysis of the deposited data

Results flagged for a closer look

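Of 41 merged rows that hold a P450 gene together with another locus, 27 held P450 genes only, and 13 of those reached 10 FPKM. Each is flagged as signal in rows that the comparisons did not use. A merged row has 1 value for all its genes, and the genes can have rows of their own in another tissue; the cause of the merging was not tested.

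In leaf blade, the merged row of LOC_Os02g30080, LOC_Os02g30100 and LOC_Os02g30110 stood at 143 FPKM. In node, where they have rows of their own, they measured 2.49, 0.183 and 0.116 FPKM. The row of LOC_Os10g38090 and LOC_Os10g38110 stood at 98.6 FPKM in leaf blade and 34.1 FPKM in stem, and in node the genes measured 2.30 and 5.79 FPKM. The row of LOC_Os01g12740 and LOC_Os01g12750 stood at 73.3 FPKM in leaf blade, while in stem the genes measured 4.20 and 2.59 FPKM. These 3 groups are among the highest P450 levels in leaf blade. The row of LOC_Os01g36294 and LOC_Os01g36350 stood at 41.6 FPKM in leaf blade, that of LOC_Os01g43750 and LOC_Os01g43760 at 26.3 FPKM and that of LOC_Os07g33580 and LOC_Os07g33610 at 19.9 FPKM.

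In stem, the row of LOC_Os04g08824, LOC_Os04g08828 and LOC_Os04g08836 stood at 210.4 FPKM. In node the row of LOC_Os04g08824 and LOC_Os04g08828 stood at 15.2 FPKM, and in leaf blade those genes measured 0.564 and 4.02 FPKM. The row of LOC_Os10g23130 and LOC_Os10g23180 stood at 102 FPKM in stem and 33.5 FPKM in node; in leaf blade LOC_Os10g23180 measured 17.0 FPKM and LOC_Os10g23130 was listed at 0. The row of LOC_Os08g01510 and LOC_Os08g01520 stood at 56.4 FPKM in stem, and that of LOC_Os03g14400 and LOC_Os03g14420 at 15.4 FPKM.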

How the results depend on the processing

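Counts of members past 4-fold moved with the pseudocount and with implied fragments, which take no pseudocount and cover only members above 0 in both tissues. With a pseudocount of 0.1, those higher in node than in leaf blade went from 22 to 35 and lower from 34 to 49. Those higher in stem than in leaf blade went from 16 to 25 and lower from 26 to 46. Those higher in node than in stem went from 11 to 23 and lower from 13 to 26. With a pseudocount of 5 the counts were 10 higher and 13 lower in node than in leaf blade, 8 higher and 10 lower in stem against leaf blade, and 5 higher and 3 lower in node than in stem. With implied fragments, 31 of 132 were higher and 48 lower in node than in leaf blade, beside 17.1% and 10.8% of all genes. In stem against leaf blade 24 of 125 were higher and 33 lower, beside 11.5% and 10.8%. In node against stem 26 of 129 were higher and 31 lower, beside 12.8% and 4.03%. A floor of 0.1 FPKM in place of a pseudocount, chosen after seeing the data, gave 37 higher and 50 lower in node than in leaf blade. It gave 26 higher and 46 lower in stem against leaf blade, and 24 higher and 31 lower in node than in stem. By construction a larger pseudocount shrinks ratios of low genes. Shares of all genes moved as well. With a pseudocount of 0.1, 19.8% were higher and 11.3% lower in node than in leaf blade. In stem against leaf blade 12% were higher and 11.4% lower, and in node against stem 13.3% and 4.39%. With a pseudocount of 5 the shares, in the order of the counts, were 5.37%, 3.34%, 2.9%, 2.7%, 2.4% and 0.911%. With the floor they were 20.3%, 11.7%, 12.5%, 11.8%, 14.1% and 4.75%. Of 76 calls of named members, 48 were still past 4-fold with a pseudocount of 5 and 0 turned direction. Rescaling without the 50 most abundant genes moved the median of all genes between node and leaf blade from 0.13 to 0.02 and no count by over 1.5 times. No paired analysis was possible because each tissue has 1 library. Low members are limited by depth, and replicate spread is unknown.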
